A study of Mus musculus with 6 samples.

Results

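Cytokine, chemokine and NF-kappaB pathway genes were followed in kidneys of 24-month-old mice, in 3 fat-1 and 3 wild-type (WT) libraries of total RNA. The set was a list of 56 gene symbols: ligands, receptors, adaptors, NF-kappaB subunits and kinases, and inhibitors of the pathway. These symbols matched 58 gene identifiers of the 13696 listed in the deposited tables, because Ccl19 and Ccl21a each stand there under 2 identifiers. Levels are in FPKM (fragments per kilobase of transcript, scaled by the authors to the size of the library), summed over the listed transcripts of each gene, which were 95 transcripts for the set. The fat-1 kidneys were labelled as knockin for fat-1, a gene from nematodes whose enzyme makes omega-3 from omega-6 fatty acids that mammals cannot interconvert, and the WT kidneys were not. The study asked what this gene does in the kidney of aged mice. Strain, sex, diet, the promoter that drives fat-1 and the insertion site are not given in the labels used here. Nothing in the labels says that the 3 kidneys of a group came from separate animals, so the tests measure the spread between these libraries, which may be technical.

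Cytokines and chemokines are secreted signals: chemokines draw leukocytes into tissue, and interleukins and TNF family ligands act on receptors of neighbouring cells. In resting cells the NF-kappaB dimers (RelA, RelB and the products of Nfkb1 and Nfkb2) are held in the cytoplasm by inhibitors such as the product of Nfkbia. Signals from the TNF, interleukin-1 and Toll-like receptors activate a kinase complex, to which Ikbkb and Ikbkg contribute, that has the inhibitor destroyed. Many chemokine genes, and the inhibitors Nfkbia and Tnfaip3 themselves, are targets of the dimers that then enter the nucleus. Another group of chemokines, Cxcl9 and Cxcl10 among them, is induced by interferon.

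Summed FPKM over all genes lay between 387488 and 431081 per library, and mitochondrially encoded genes took 12.1% to 16.7% of it. The tables hold no read counts: sequencing depth is unknown, and levels carry no counting intervals. Markers of the proximal tubule, the most abundant epithelium of the kidney, summed to 10537, 15310 and 12701 FPKM in fat-1 replicates 1 to 3, against 9697, 18879 and 21420 FPKM in WT replicates 1 to 3. No transcript of the inserted gene was analysed here, so the genotype labels could not be checked against it. Over all listed genes, libraries correlated at 0.942 to 0.976 within groups and at 0.946 to 0.970 between groups on the log2(FPKM + 1) scale. Pairs with WT replicate 1 lay at 0.942 to 0.9495, and all other pairs at 0.9494 to 0.9761.

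One WT library stood apart in these genes. WT replicate 1 had the highest of the 6 levels for 44 of the 58 members (75.9%), against 27.0% of all listed genes. It was at least 2 times every other library for 24 members (41.4%), against 4.6% of all listed genes. Cxcl5, Il1a, Nlrp3 and Tnf reached the 0.5 FPKM needed for listing in WT replicate 1 alone, so they had to be highest there. Summed over the set, fat-1 replicates 1 to 3 held 458, 391 and 475 FPKM, and WT replicates 1 to 3 held 935, 323 and 337 FPKM. With 4 other scalings of the libraries, 40 to 43 members were still highest in WT replicate 1. The results on genotype are therefore given with and without this library.

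**Figure D1:**
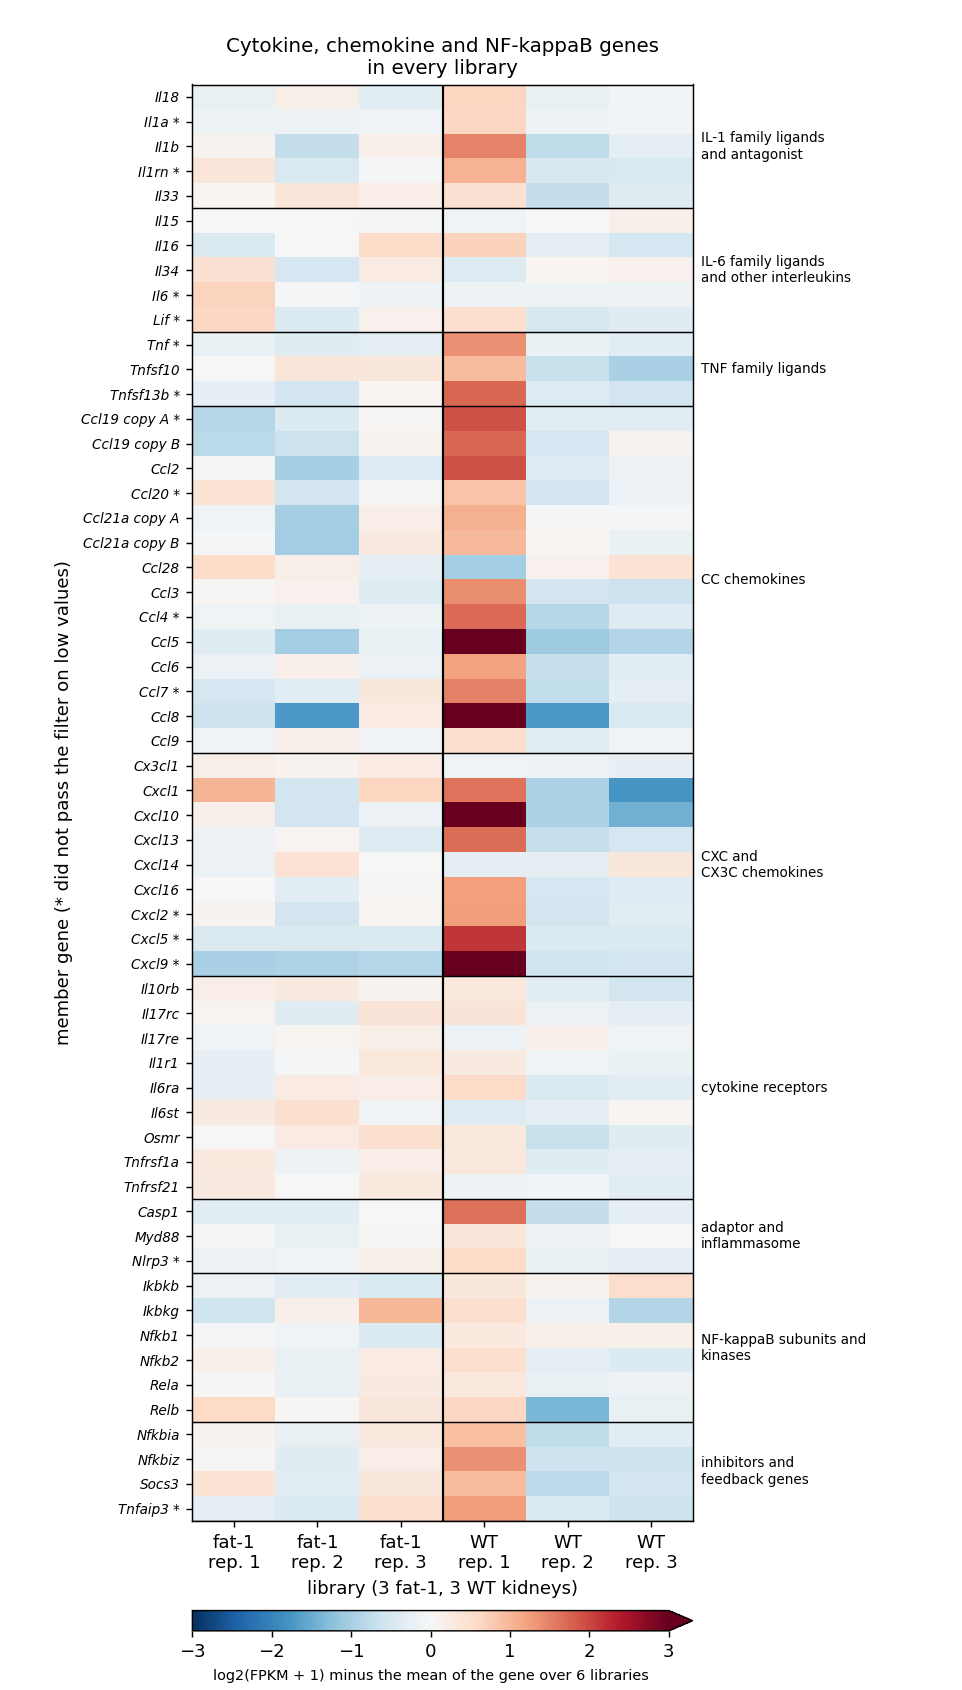
Level of every member in every library, as log2(FPKM + 1) minus the mean of that gene over the 6 libraries; fat-1 libraries stand left of the line and WT libraries right of it, members are grouped by role, and an asterisk marks the 15 members that did not pass the filter on low values. The column of WT replicate 1 is red for most chemokines, with Ccl5, Ccl8, Cxcl9 and Cxcl10 beyond the end of the colour scale, while the receptor rows are pale in all 6 columns.

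The members spanned a wide range of levels. Only 9 were at 10 FPKM or more in every library, namely Cx3cl1, Cxcl16, Il34, Rela, Il10rb, Il6st, Tnfrsf1a, Tnfrsf21 and Nfkbia. Per length of transcript, Tnfrsf21, which encodes death receptor 6 of the TNF receptor family, had the highest mean over the 6 libraries, although Ccl5 and Cxcl10 exceeded it in WT replicate 1. At the other end, 8 members were listed at 0 in at least 1 library. Cxcl5, a neutrophil-attracting chemokine, was listed at 0 in all 3 fat-1 libraries and in WT replicates 2 and 3, and stood at 4.93 FPKM in WT replicate 1. Il6 was at 0.785, 0.0875 and 0 FPKM in fat-1 replicates 1 to 3 and was listed at 0 in all 3 WT libraries. Tnf was at 0.396, 0.257 and 0.336 FPKM in fat-1 replicates 1 to 3, against 3.20, 0.397 and 0.287 FPKM in WT replicates 1 to 3. Over their listed transcripts, the classical cytokines Il1a, Il6 and Tnf were thus below 1 FPKM in all libraries but WT replicate 1, where Tnf alone exceeded it.

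Of the roles, CC chemokines had the widest spread in summed FPKM between libraries. The 14 CC chemokine members summed to 36.7, 26.2 and 40.1 FPKM in fat-1 replicates 1 to 3, against 279, 25.8 and 33.1 FPKM in WT replicates 1 to 3, and 13 of them were highest in WT replicate 1. Ccl5, which attracts T cells and monocytes (chromosome 11, 83525778 to 83530518, mm10), was at 7.92, 4.73 and 9.07 FPKM in fat-1 kidneys, against 133, 4.55 and 5.27 FPKM in WT kidneys. The WT replicate 1 value was 25.2 times the median of the other 5 libraries, and the groups overlapped in the rest of their values. Ccl8, a monocyte chemokine (chromosome 11, 82115185 to 82116799), was at 1.17, 0 and 2.92 FPKM in fat-1 kidneys, against 63.3, 0 and 1.45 FPKM in WT kidneys. Ccl2, the main monocyte attractant of the family, was at 3.37, 1.14 and 2.27 FPKM in fat-1 kidneys, against 15.1, 2.27 and 2.78 FPKM in WT kidneys. For both genes WT replicate 1 alone was high.

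The macrophage and lymphocyte chemokines Ccl3, Ccl4, Ccl6, Ccl7 and Ccl9 had the same highest library. Ccl6 was at 4.75, 6.28 and 4.84 FPKM in fat-1 kidneys, against 14.2, 3.06 and 4.27 FPKM in WT kidneys. Ccl3 was at 1.04, 1.16 and 0.540 FPKM in fat-1 kidneys, against 4.20, 0.370 and 0.285 FPKM in WT kidneys, and Ccl4 at 0.684, 0.544 and 0.619 FPKM against 4.86, 0 and 0.377 FPKM. Ccl7 and Ccl9 peaked at 5.91 and 2.98 FPKM in WT replicate 1. These 5 genes and Ccl2, Ccl5 and Ccl8 all lie on chromosome 11, between 82035571 and 83664683, so 8 of 8 members of that cluster were highest in WT replicate 1. The share of reads that near-identical chemokine genes exchange in counting is not known here.

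Chemokines of lymphoid tissue behaved alike. Ccl19 and Ccl21a, which guide T cells and dendritic cells, occur in near-identical copies, and how reads were divided between copies is uncertain. The Ccl19 copy on chromosome 4 was at 0.240, 0.688 and 1.31 FPKM in fat-1 kidneys, against 7.48, 0.806 and 0.793 FPKM in WT kidneys, and the copy on a separate scaffold at 0.652, 0.850 and 2.15 FPKM against 8.63, 1.06 and 2.14 FPKM. The Ccl21a copy on chromosome 4 was at 3.61, 1.54 and 4.85 FPKM in fat-1 kidneys, against 9.64, 3.86 and 3.85 FPKM in WT kidneys, and its scaffold copy was highest in the same library, at 6.82 FPKM. Ccl20, the ligand of CCR6, did not exceed 1.70 FPKM in any library. Ccl28, a chemokine of mucosal epithelium, was the 1 CC member with its lowest level in WT replicate 1. It was at 7.18, 5.26 and 3.61 FPKM in fat-1 kidneys, against 1.77, 5.06 and 6.59 FPKM in WT kidneys.

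Among the 9 CXC and CX3C members, Cxcl9 and Cxcl10 had the widest spread. Cxcl10, an attractant of activated T cells (chromosome 5, 92346638 to 92348889), was at 13.3, 7.63 and 10.3 FPKM in fat-1 kidneys, against 102, 5.69 and 3.71 FPKM in WT kidneys. Its neighbour Cxcl9 (92321347 to 92328079), which shares the receptor CXCR3, was at 0.509, 0.555 and 0.630 FPKM in fat-1 kidneys, against 42.7, 0.951 and 0.973 FPKM in WT kidneys. For Cxcl9 every fat-1 library lay below every WT library, but only 1 library reached 1 FPKM, so it was not tested. Cxcl10 differed from Cxcl9 in the remaining libraries, since all 3 fat-1 values of Cxcl10 were above WT replicates 2 and 3.

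The neutrophil chemokine Cxcl1 was at 5.96, 1.36 and 4.37 FPKM in fat-1 kidneys, against 9.58, 0.770 and 0 FPKM in WT kidneys. Cxcl2, of the same subfamily, stayed at or below 0.576 FPKM outside WT replicate 1, where it was at 2.5004 FPKM. Cxcl13, the B cell chemokine, was at 1.94, 2.48 and 1.52 FPKM in fat-1 kidneys, against 9.56, 1.04 and 1.32 FPKM in WT kidneys. Cxcl16, made by macrophages and epithelium, was at 14.7, 11.5 and 15.3 FPKM in fat-1 kidneys, against 36.7, 10.2 and 11.1 FPKM in WT kidneys. All 6 CXC members on chromosome 5 (Cxcl1, Cxcl2, Cxcl5, Cxcl9, Cxcl10 and Cxcl13) were highest in WT replicate 1, and Cxcl5 was listed through that library alone. Cxcl14, which lies on another chromosome, was highest in fat-1 replicate 2 at 16.6 FPKM and stood at 9.64 FPKM in WT replicate 1.

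Promoter sequence of 2 chemokines and 2 inhibitors is shown because kappaB elements are known control sites of these genes, as is an interferon element of Cxcl10. The sequences come from RefSeq on GRCm38.p6 and cover the 250 bases before the annotated start, on the gene's strand, 5′ to 3′. Capitals mark matches to the kappaB consensus on either strand and, in Cxcl10 only, the first capital run is the core of the interferon-stimulated response element, a pair of GAAA motifs parted by any 2 bases. Matches to the kappaB consensus on opposite strands overlap each other in Cxcl10, Cxcl1 and Tnfaip3, and no kappaB match overlaps the interferon element. The Tnfaip3 promoter shown lies before transcript Tnfaip3-201, which was at 0.106 FPKM in WT replicate 1. Tnfaip3-202, at 4.22 FPKM in that library, has another RefSeq promoter (chr10:19011964-19012213), with 0 matches to either element.
Cxcl10, chr5:92348890-92349139, minus strand: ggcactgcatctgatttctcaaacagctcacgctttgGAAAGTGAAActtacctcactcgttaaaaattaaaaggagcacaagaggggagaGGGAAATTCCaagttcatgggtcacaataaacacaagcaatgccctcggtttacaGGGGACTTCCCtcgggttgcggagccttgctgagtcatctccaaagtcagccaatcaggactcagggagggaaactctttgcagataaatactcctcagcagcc
Cxcl1, chr5:90890995-90891244, plus strand: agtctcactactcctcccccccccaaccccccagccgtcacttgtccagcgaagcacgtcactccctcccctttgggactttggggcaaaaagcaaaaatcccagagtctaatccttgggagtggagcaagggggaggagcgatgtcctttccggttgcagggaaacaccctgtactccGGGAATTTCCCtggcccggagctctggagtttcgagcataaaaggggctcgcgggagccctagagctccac
Nfkbia, chr12:55492648-55492897, minus strand: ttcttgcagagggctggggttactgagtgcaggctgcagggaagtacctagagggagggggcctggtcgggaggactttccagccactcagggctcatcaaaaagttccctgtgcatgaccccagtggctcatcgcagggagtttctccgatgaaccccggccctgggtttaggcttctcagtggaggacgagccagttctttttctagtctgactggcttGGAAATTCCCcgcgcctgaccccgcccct
Tnfaip3, chr10:19015411-19015660, minus strand: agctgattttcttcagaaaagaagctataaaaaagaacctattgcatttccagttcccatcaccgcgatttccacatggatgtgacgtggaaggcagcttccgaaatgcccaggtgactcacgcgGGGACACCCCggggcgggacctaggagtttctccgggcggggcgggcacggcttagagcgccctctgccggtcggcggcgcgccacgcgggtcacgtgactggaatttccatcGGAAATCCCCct
Of the 56 symbols, 43 had a promoter in the RefSeq table. A kappaB match lay within the window for 13 of these 43 genes (30.2%), against 8.23% of the 27025 genes with a promoter. The 13 were Ccl9, Ccl20, Cxcl1, Cxcl2, Cxcl10, Il6, Il16, Lif, Il1r1, Nfkb2, Nfkbia, Nlrp3 and Tnfaip3. The interferon core was found for 5 of 43 (11.6%), against 3.46% of all genes: Ccl19, Cxcl10, Cxcl14, Myd88 and Tnfsf13b. All 4 printed promoters hold a match, whereas those of Cxcl9 and Ccl8 hold 0 matches to either element. A match describes the letters in this window and does not show that a factor bound there.

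The IL-1 and TNF families were likewise highest in WT replicate 1, with 5 of 5 and 3 of 3 members, against 27.0% of all listed genes. Il1a and Tnf are in these counts, although they were listed through that library alone. Il1b was at 2.87, 1.22 and 3.02 FPKM in fat-1 kidneys, against 9.06, 1.13 and 2.00 FPKM in WT kidneys. Il18, which kidney epithelium makes as a precursor, was at 2.23, 3.24 and 2.04 FPKM in fat-1 kidneys, against 4.89, 2.25 and 2.56 FPKM in WT kidneys. Il1rn, the secreted antagonist of the IL-1 receptor, reached 2.11 FPKM in WT replicate 1 and at most 0.931 FPKM elsewhere. Tnfsf10, which encodes the death ligand TRAIL (chromosome 3, 27317028 to 27342427), was at 17.2, 22.1 and 21.8 FPKM in fat-1 kidneys, against 33.6, 10.4 and 8.14 FPKM in WT kidneys. It combined the highest level in WT replicate 1 with the lowest levels in the other two WT libraries. Tnfsf13b, the B cell survival factor BAFF, was at 0.853, 0.463 and 1.28 FPKM in fat-1 kidneys, against 6.19, 0.655 and 0.465 FPKM in WT kidneys.

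Il33, an alarmin of the IL-1 family, was at 4.85, 6.23 and 5.41 FPKM in fat-1 kidneys, against 6.75, 2.44 and 3.35 FPKM in WT kidneys. Its transcripts were divided differently from library to library. Il33-202 held 4.84, 6.23 and 5.41 FPKM in fat-1 kidneys, against 0.969, 2.44 and 0 FPKM in WT kidneys. Il33-201, whose annotated start lies further downstream, was at 0.00188, 0 and 0 FPKM in fat-1 kidneys, against 5.78, 0 and 3.35 FPKM in WT kidneys. This division is an estimate made in the authors' processing and was not tested.

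The other interleukins did not follow the pattern of the chemokines, with 1 of 5 (Il16) highest in WT replicate 1. Il34, a ligand of the macrophage growth factor receptor CSF1R, was at 22.4, 10.95 and 19.2 FPKM in fat-1 kidneys, against 12.1, 16.7 and 17.7 FPKM in WT kidneys. Il15, which sustains T and NK cells, was even across libraries, at 5.43, 5.31 and 5.11 FPKM in fat-1 kidneys and 4.91, 5.29 and 6.04 FPKM in WT kidneys. Il16 was at 0.919, 1.59 and 2.76 FPKM in fat-1 kidneys, against 3.18, 1.09 and 0.801 FPKM in WT kidneys. Lif, of the IL-6 family, was at 1.46, 0.196 and 0.754 FPKM in fat-1 kidneys, against 1.28, 0.159 and 0.253 FPKM in WT kidneys. In both genes the groups overlapped.

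**Figure D2:**
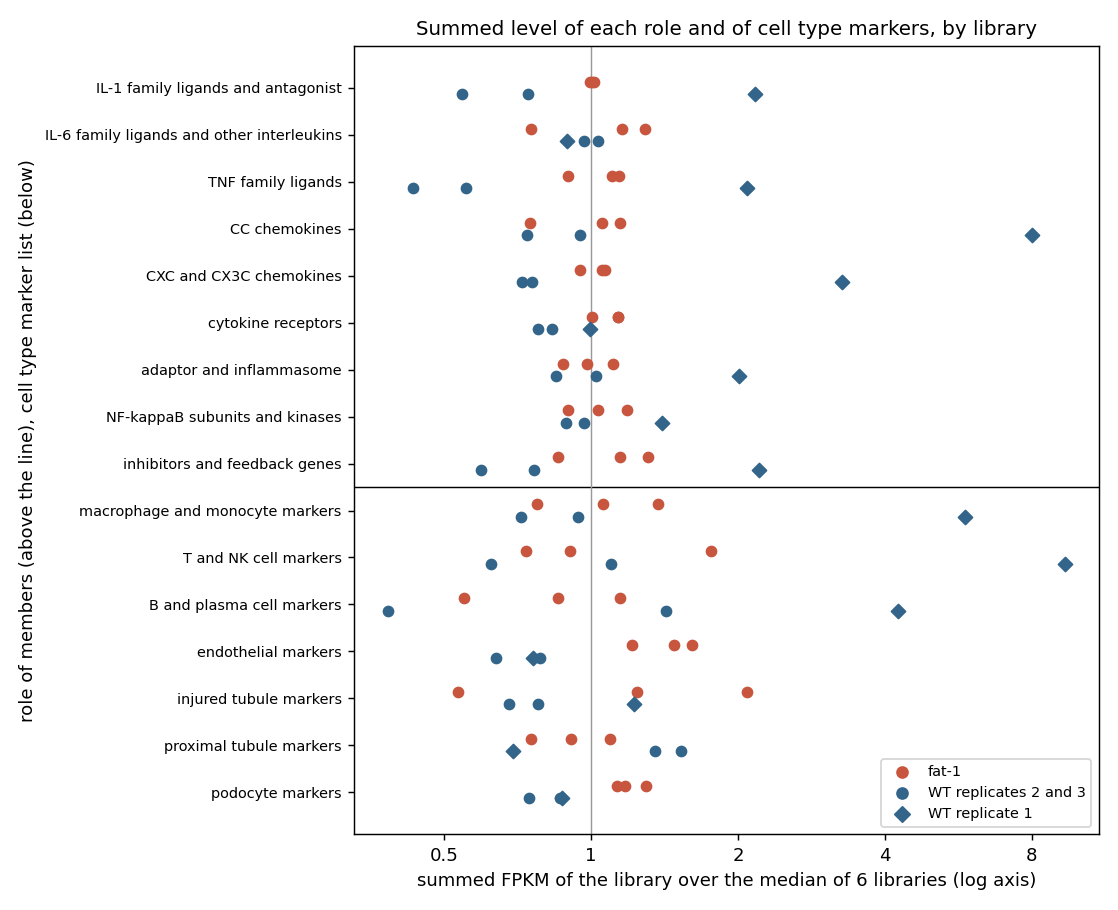
Summed FPKM of each role of the set (above the line) and of cell type marker lists (below it), each divided by its median over the 6 libraries, on a log axis; red points are the 3 fat-1 libraries, blue points WT replicates 2 and 3, and the diamond WT replicate 1. The diamond lies far to the right for both chemokine groups and for macrophage, T and NK cell and B cell markers, and near 1 for cytokine receptors.

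The sums of leukocyte markers were highest in the same library. The 13 listed macrophage and monocyte markers summed to 204, 149 and 264 FPKM in fat-1 replicates 1 to 3, against 1127, 138 and 181 FPKM in WT replicates 1 to 3, and 13 of 13 were highest in WT replicate 1. The 14 listed T and NK cell markers summed to 6.34, 7.78 and 15.2 FPKM in fat-1 kidneys, against 80.4, 5.36 and 9.43 FPKM in WT kidneys, and 14 of 14 were highest in WT replicate 1. Both lists thus shared their highest library with most chemokines. Over all listed genes, 27.0% were highest in that library. Only 3 of the 14 T and NK cell markers passed the filter on low values. Any marker listed through WT replicate 1 alone had to be highest in it. The 9 listed B and plasma cell markers summed to 47.4, 98.9 and 73.8 FPKM in fat-1 kidneys, against 367, 33.1 and 123 FPKM in WT kidneys. Only 5 of these 9 were highest in WT replicate 1. No macrophage marker was at 0 in any library, whereas the cytotoxic markers Gzma and Gzmb were listed at 0 in 3 libraries each and stood at 15.5 and 11.3 FPKM in WT replicate 1. Fewer cells of a type and less RNA per cell cannot be told apart in whole-kidney RNA, and the part of leukocyte content in the chemokine levels was not tested.

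The 9 receptor members summed to 187, 166 and 187 FPKM in fat-1 kidneys, against 164, 137 and 128 FPKM in WT kidneys, so every fat-1 sum lay above every WT sum. This order rested on Tnfrsf21, the largest contributor and the only one of the 9 whose groups did not overlap. The separation of the sums is therefore not shared by each receptor, and groups did not overlap for 15.2% of all tested genes. Tnfrsf21 (chromosome 17, 43016555 to 43089188) was at 95.6, 78.8 and 97.7 FPKM in fat-1 kidneys, against 72.1, 75.2 and 64.3 FPKM in WT kidneys. Tnfrsf1a, the main receptor for TNF, was at 30.7, 22.1 and 28.6 FPKM in fat-1 kidneys, against 30.9, 19.0 and 20.4 FPKM in WT kidneys. Il10rb, a chain shared by the receptors for IL-10 and IL-22 (chromosome 16, 91406235 to 91425834), was at 25.3, 26.7 and 23.9 FPKM in fat-1 kidneys, against 27.7, 17.1 and 14.6 FPKM in WT kidneys. Only for Tnfrsf21 did the groups of these genes not overlap.

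The signal chain of IL-6 family receptors, Il6st, was at 19.5, 22.4 and 14.6 FPKM in fat-1 kidneys, against 11.9, 12.8 and 16.5 FPKM in WT kidneys. Osmr, the oncostatin M receptor that pairs with it, was at 4.23, 5.22 and 6.30 FPKM in fat-1 kidneys, against 5.61, 2.30 and 3.12 FPKM in WT kidneys. Il6ra, the IL-6 binding chain, was at 0.906, 1.68 and 1.63 FPKM in fat-1 kidneys, against 2.41, 0.689 and 0.783 FPKM in WT kidneys. Each of these had at least 1 WT value inside or above the fat-1 range. The IL-17 receptor chain Il17rc was between 5.61 and 10.2 FPKM in fat-1 kidneys and between 5.97 and 10.2 FPKM in WT kidneys. Il17re and the IL-1 receptor gene Il1r1 were below 3 FPKM in every library, with overlapping groups.

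Among NF-kappaB kinases and subunits, Ikbkb and Nfkb1 were lower in every fat-1 library than in any WT library. Ikbkb, the catalytic kinase subunit that marks the inhibitors for destruction (chromosome 8, 22659212 to 22706589), was at 6.03, 5.22 and 4.72 FPKM in fat-1 kidneys, against 9.01, 7.56 and 10.45 FPKM in WT kidneys. Its difference lay in transcript Ikbkb-201, at 3.41, 3.29 and 2.67 FPKM in fat-1 kidneys against 6.44, 5.81 and 9.24 FPKM in WT kidneys. Ikbkb-202, at 2.46, 1.93 and 1.80 FPKM in fat-1 kidneys and 1.90, 1.75 and 1.21 FPKM in WT kidneys, overlapped between groups. Nfkb1, the gene of the p50 subunit (chromosome 3, 135584655 to 135691546), was at 4.84, 4.54 and 3.43 FPKM in fat-1 kidneys, against 6.31, 5.66 and 5.64 FPKM in WT kidneys.

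The remaining subunits overlapped between groups. Rela, which supplies the main transactivating subunit, was at 12.3, 10.3 and 14.7 FPKM in fat-1 kidneys, against 15.2, 10.2 and 10.6 FPKM in WT kidneys. Relb, of the alternative pathway, was at 4.84, 2.95 and 3.85 FPKM in fat-1 kidneys, against 4.91, 0.481 and 2.27 FPKM in WT kidneys. Nfkb2, its partner, was at 7.86, 5.81 and 8.41 FPKM in fat-1 kidneys, against 10.2, 5.54 and 4.96 FPKM in WT kidneys. Ikbkg, the regulatory kinase subunit, varied widely inside both groups, at 2.16, 4.26 and 8.45 FPKM in fat-1 kidneys and 5.72, 3.25 and 1.60 FPKM in WT kidneys.

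All 4 inhibitor and feedback members were highest in WT replicate 1 and higher in every fat-1 library than in WT replicates 2 and 3. The latter order held for 20.4% of all genes tested without WT replicate 1. Tnfaip3 did not pass the filter, and its levels in fat-1 replicate 2 and WT replicate 2 were close, at 0.679 and 0.644 FPKM. Nfkbia, whose promoter is printed above (gene at chromosome 12, 55489410 to 55492647), was at 31.6, 25.0 and 36.2 FPKM in fat-1 kidneys, against 56.0, 17.0 and 23.3 FPKM in WT kidneys. Socs3, which restrains IL-6 family signals (chromosome 11, 117966079 to 117969186), was at 6.61, 3.51 and 6.23 FPKM in fat-1 kidneys, against 10.004, 2.33 and 2.81 FPKM in WT kidneys. Nfkbiz, a nuclear regulator of NF-kappaB targets, was at 5.59, 4.03 and 6.36 FPKM in fat-1 kidneys, against 15.5, 3.15 and 3.18 FPKM in WT kidneys. Tnfaip3, the ubiquitin-editing enzyme A20, was at 0.842, 0.679 and 2.11 FPKM in fat-1 kidneys, against 4.32, 0.644 and 0.443 FPKM in WT kidneys. All 3 adaptor and inflammasome members were highest in WT replicate 1 too, although Nlrp3 was listed through that library alone. Casp1, the protease that matures IL-1 beta and IL-18, was at 1.58, 1.62 and 2.30 FPKM in fat-1 kidneys, against 9.29, 1.02 and 1.73 FPKM in WT kidneys. The adaptor Myd88 was at 9.68, 8.39 and 10.2 FPKM in fat-1 kidneys, against 13.1, 8.71 and 10.1 FPKM in WT kidneys, and the sensor Nlrp3 exceeded 1 FPKM only in WT replicate 1, at 1.01 FPKM.

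Genotype was tested with limma on log2(FPKM + 1) for genes that reached 1 FPKM in 3 or more of the 6 libraries, which 43 members did and 15 did not. Differences are fat-1 minus WT, and this scale understates the change of low genes. At an adjusted p of 0.05 (Benjamini-Hochberg over 11698 genes), 0 of 43 members were called, where 0.18% of all tested genes were. At an unadjusted p under 0.05, 4 of 43 members (9.3%) passed, against 9.97% of all tested genes, so the share of members was near the background. The difference was positive for 23 of 43 members (53.5%), against 51.2% of all tested genes. Its median was 0.056 over the members and 0.0059 over all tested genes. A member that passed the filter through 1 group alone had to differ, so these counts cover the tested members and not the whole set.

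The groups did not overlap for 4 of the 43 tested members (9.3%), against 15.2% of all tested genes. Ikbkb averaged 5.32 ± 0.658 FPKM in fat-1 kidneys and 9.01 ± 1.45 FPKM in WT kidneys (SD, n = 3 each). Its log2 difference was -0.66 ± 0.16 (SE; 95% interval -1.04 to -0.27, limma adjusted p = 0.198). Nfkb1 averaged 4.27 ± 0.742 FPKM in fat-1 kidneys and 5.87 ± 0.382 FPKM in WT kidneys (SD, n = 3 each), a difference of -0.39 ± 0.16 (limma adjusted p = 0.479). With the highest transcript alone in place of the sum, the difference of Nfkb1 was -0.032 (limma adjusted p = 0.996). Cx3cl1, the membrane-anchored chemokine fractalkine (chromosome 8, 94772009 to 94782427), was at 32.1, 30.5 and 33.9 FPKM in fat-1 kidneys, against 25.7, 25.3 and 23.7 FPKM in WT kidneys. Its difference was 0.36 ± 0.10 (95% interval 0.12 to 0.60, limma adjusted p = 0.269). Tnfrsf21 averaged 90.7 ± 10.4 FPKM in fat-1 kidneys and 70.5 ± 5.63 FPKM in WT kidneys (SD, n = 3 each), a difference of 0.36 ± 0.13 (limma adjusted p = 0.434). Cx3cl1 and Tnfrsf21 were thus higher, and Ikbkb and Nfkb1 lower, in every fat-1 library than in any WT library, and none passed the threshold over all genes.

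**Figure D3:**
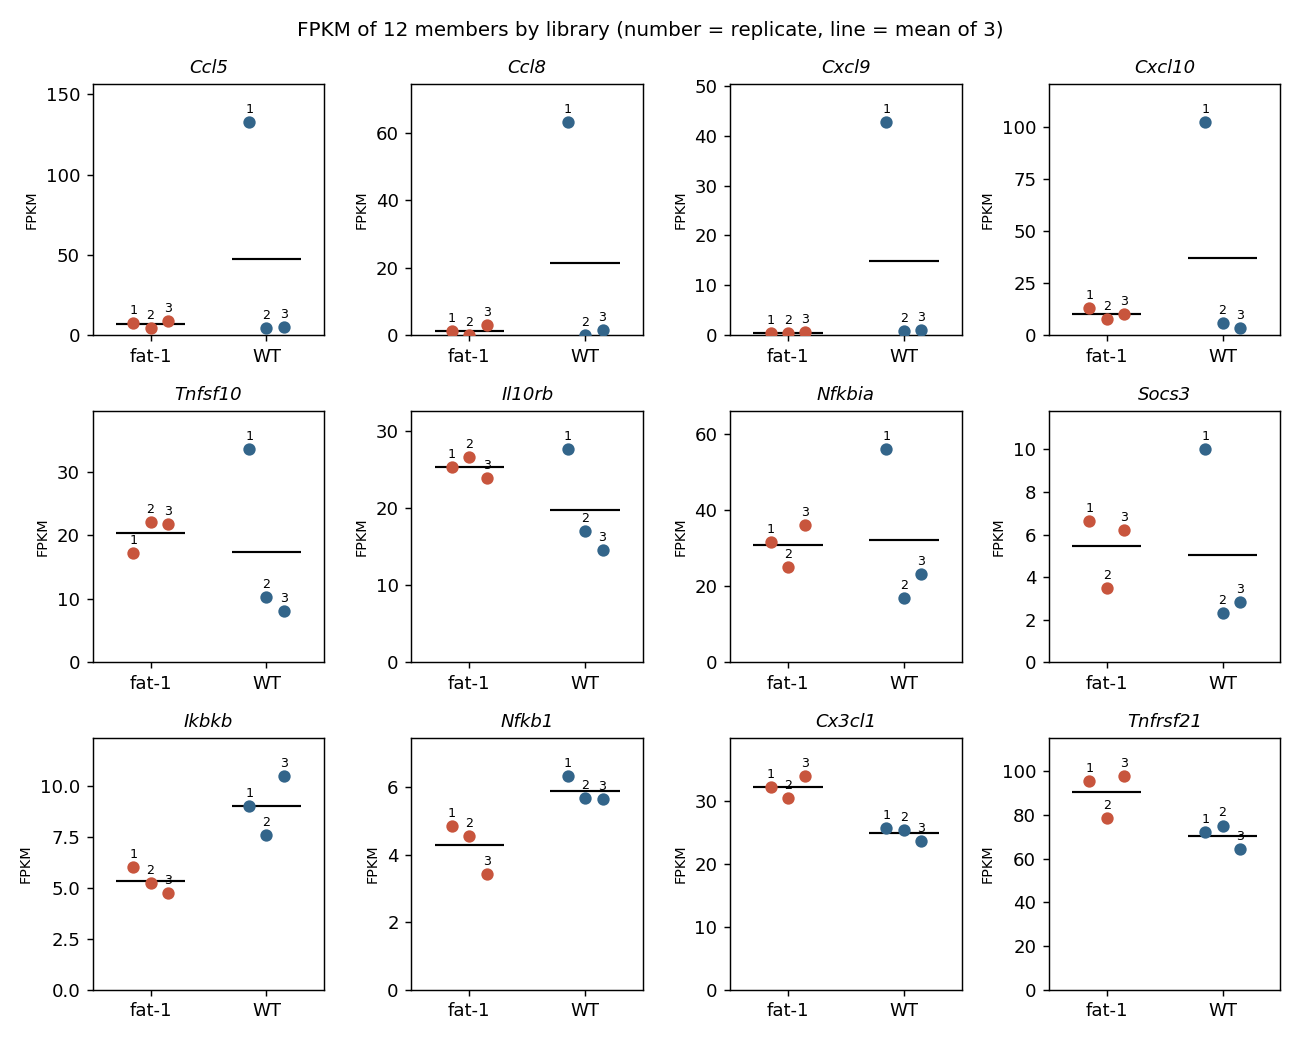
FPKM of 12 members in each library, fat-1 left (red) and WT right (blue), with the replicate number beside each point and a line at the mean of 3 libraries; the 12 were chosen after their values were seen. WT replicate 1 sets the WT mean of the 4 chemokines in the top row, with Ccl5 at 133 FPKM there, while Ikbkb, Nfkb1, Cx3cl1 and Tnfrsf21 in the bottom row have groups that do not overlap.

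For Ccl5, Ccl8 and Cxcl10, the standard error was larger than the difference. The difference of Ccl5 was -1.06 ± 1.19 (limma adjusted p = 0.882), that of Ccl8 -1.40 ± 1.49 (limma adjusted p = 0.874) and that of Cxcl10 -0.41 ± 1.11 (limma adjusted p = 0.972). By role, the difference was positive for 1 of 10 tested CC chemokines (median -0.59), 3 of 6 tested CXC and CX3C chemokines (median -0.030) and 9 of 9 receptors (median 0.22). It was positive for 1 of 3 tested IL-1 family members, 2 of 3 other interleukins, the 1 tested TNF family ligand, 4 of 6 kinases and subunits, 2 of 3 inhibitors and 0 of 2 adaptor and inflammasome members. No member of any role was called.

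Without WT replicate 1, most differences turned towards higher levels in fat-1 kidneys. That library was the highest for 44 of 58 members, and it was singled out because of these values. Leaving it out had to raise the difference of any gene highest in it, member or not. The shares given here therefore describe the other 5 libraries and are not a test of genotype. Of the 41 members tested with the other 5 libraries, 32 had a positive difference (78.0%), against 57.7% of all tested genes. The median was 0.37 over the members and 0.049 over all tested genes. At an unadjusted p under 0.05, 13 of 41 members passed (31.7%), against 13.8% of all tested genes. Of these, 12 members were higher in fat-1 kidneys (29.3%), against 9.05% of all tested genes. All 3 fat-1 libraries lay above WT replicates 2 and 3 for 18 of 41 members (43.9%), against 20.4% of all tested genes, and below them for 2 (4.88%), against 11.8%. With 2 WT libraries left, a gene could pass the filter through fat-1 alone but not through WT alone. Cxcl1 did so, and it is in the counts of higher members here and in that of its role below. At an adjusted p of 0.05, 0 of 41 members were called, where 0.218% of all tested genes were. Leaving out each other library in turn, 3 or 4 of 41 to 43 members passed the unadjusted threshold, or 6.98% to 9.3%, against 7.16% to 9.23% of all tested genes in those fits.

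Tnfsf10 had the lowest adjusted p without WT replicate 1, with a difference of 1.06 ± 0.17 (SE; limma adjusted p = 0.0826), against 0.47 ± 0.48 with all 6 libraries (limma adjusted p = 0.863). Il10rb followed, at 0.65 ± 0.13 (limma adjusted p = 0.114), against 0.39 ± 0.22 with all 6 libraries (limma adjusted p = 0.682). Il33 had 0.74 ± 0.19 (limma adjusted p = 0.176), Cxcl10 0.99 ± 0.27 (limma adjusted p = 0.192) and Osmr 0.75 ± 0.21 (limma adjusted p = 0.203). Cxcl10 and Ccl5 changed sign with this library: Ccl5 was at 0.44 ± 0.26 without it (limma adjusted p = 0.531). The same held for Nfkbiz (0.59 ± 0.21, limma adjusted p = 0.289), while Nfkbia and Socs3 kept a positive sign at 0.60 ± 0.21 and 0.82 ± 0.27. Relb was at 1.13 ± 0.37 and Cxcl1 at 1.74 ± 0.51, both from levels under 6 FPKM. Without WT replicate 1, Cxcl1 reached 1 FPKM in fat-1 libraries alone, so its difference had to be positive and is not read as a result. Ikbkb (-0.65 ± 0.19) and Cx3cl1 (0.38 ± 0.12) were almost unmoved.

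Without WT replicate 1, the positive members were 4 of 9 CC chemokines, 6 of 6 CXC and CX3C chemokines, 3 of 3 IL-1 family members, 8 of 8 receptors, 4 of 6 kinases and subunits, 3 of 3 inhibitors, 2 of 2 adaptor and inflammasome members and the 1 tested TNF family ligand. The other interleukins went the other way, with 1 of 3 positive (median -0.033). In the same 5 libraries, 11 of 13 macrophage and monocyte markers were higher in fat-1 kidneys (median 0.29), against 57.7% of all tested genes (median 0.049). With WT replicate 1 included, 0 of 13 were (median -0.62). All 13 were highest in that library, so leaving it out had to raise their differences. The part of these markers in the differences of the members was not tested. Endothelium is one source of Cx3cl1, and the 12 endothelial markers summed to 212, 258 and 281 FPKM in fat-1 kidneys, against 132, 111 and 137 FPKM in WT kidneys. With all 6 libraries, 12 of 12 were higher in fat-1 kidneys (median 0.92), against 51.2% of all tested genes. Of the 12, 1 was called, where 0.18% of all tested genes were. The 8 podocyte markers summed to 105, 120 and 109 FPKM in fat-1 kidneys, against 80.8, 69.1 and 80.01 FPKM in WT kidneys. The part of these cell types in the higher levels of Cx3cl1, Tnfrsf21 and Tnfsf10 was not tested either.

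**Figure D4:**
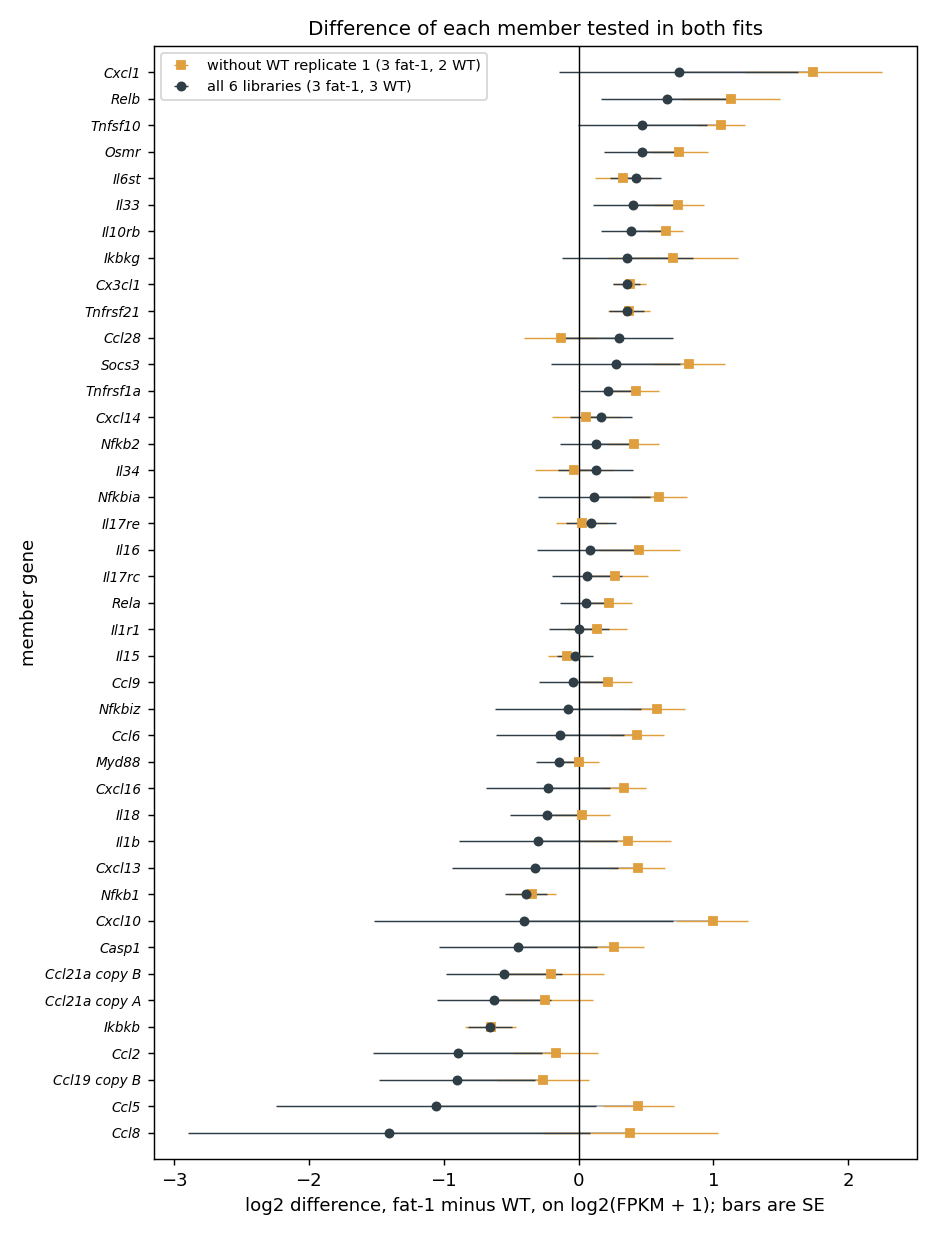
Difference of each member tested in both fits, as the log2(FPKM + 1) level in fat-1 minus that in WT, with all 6 libraries (dark circles) and without WT replicate 1 (orange squares); bars are standard errors. The squares lie right of the circles for most members, as they must for any member highest in WT replicate 1. Tnfsf10 is at 1.06 against 0.47 and Cxcl10 at 0.99 against -0.41, whereas Ikbkb and Cx3cl1 hardly move.

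Other genes of the pathways were read from lists that do not include the members, and 0 genes of these lists were called. At an unadjusted p under 0.05, 3 of 21 other NF-kappaB targets, 1 of 6 chemokine receptors and 2 of 17 Toll-like receptor and inflammasome genes passed, where 9.97% of all tested genes did, and 0 genes of the other lists passed. Among other NF-kappaB signalling genes, 15 of 35 tested had a positive difference (median -0.051), and 24 of 35 did without WT replicate 1 (median 0.065). Map3k7, the kinase TAK1 upstream of the kinase complex, had 0.69 ± 0.31 (limma adjusted p = 0.545), and Tab2 and Bcl3 had -0.21 and -0.47. Among other NF-kappaB targets, 8 of 21 were positive with all libraries (median -0.041) and 18 of 21 without WT replicate 1 (median 0.43). Ninj1, whose protein ruptures the plasma membrane of dying cells, was at 19.9, 18.8 and 21.7 FPKM in fat-1 kidneys, against 31.1, 35.4 and 30.4 FPKM in WT kidneys. Its difference was -0.65 ± 0.12 (limma adjusted p = 0.103), and those of Plau and Ier3 were -0.63 and 0.54.

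Chemokine receptors were scarce, with 6 of 13 listed genes tested and 3 positive (median -0.015), and 5 of 6 positive without WT replicate 1 (median 0.35). Ackr3, a scavenging receptor for Cxcl12, was at 17.0, 13.1 and 26.965 FPKM in fat-1 kidneys, against 26.0, 27.8 and 33.3 FPKM in WT kidneys (difference -0.64 ± 0.25, limma adjusted p = 0.469). Cxcr6, the receptor of Cxcl16, and Ccr2, that of Ccl2, had -0.51 and -0.18, and 0.11 and 0.061 without WT replicate 1. Toll-like receptor and inflammasome genes were positive in 6 of 17 (median -0.14), and in 12 of 16 without WT replicate 1 (median 0.16). Tlr12 was at 6.71, 7.15 and 6.81 FPKM in fat-1 kidneys, against 9.71, 11.98 and 10.7 FPKM in WT kidneys, with groups that did not overlap (difference -0.58 ± 0.13, limma adjusted p = 0.152). Nlrp6 had -0.63. Nek7 had -0.81, which rested on fat-1 replicate 3: it was at 27.3, 25.3 and 5.39 FPKM in fat-1 kidneys, against 29.5, 26.8 and 29.0 FPKM in WT kidneys, and its difference without that library was -0.11. JAK-STAT and SOCS genes were positive in 12 of 22 (median 0.034) and in 16 of 22 without WT replicate 1 (median 0.12), with Jak3 at 0.42, Stat3 at 0.40 and Cish at 0.39. Other TNF receptors and ligands were positive in 4 of 7 (median 0.097) and in 4 of 6 without WT replicate 1 (median 0.34), with Fas at 0.33, Ltbr at -0.16 and Tnfsf12 at 0.17.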

How the data were processed

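Total RNA of mouse kidney was sequenced in 6 libraries. The authors' deposited tables give FPKM per transcript, 1 table per library, for 27486 protein-coding transcripts that each reach at least 0.5 FPKM in at least 1 library. The submitters' processing notes name the mm10 build with DESeq2 1.20.0, featureCounts 1.5.0-p3 and HISAT2 2.0.5. Which program computed FPKM was not given in the sources used here. FPKM rests on an estimated division of reads among transcripts and gene copies, and an abundant gene lowers all others. Gene symbols that had become dates on 64 lines were restored. In the low values, 20.0% to 25.1% lay within 0.05 of a whole multiple of a step, chosen in each library to give the highest share. An even spread gives 10% for a step fixed beforehand and more for a chosen one. Reads were not recovered.

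Transcripts were summed by gene identifier. Genes that reached 1 FPKM in 3 or more libraries were tested with limma 3.58.1 (R 4.3.3, intensity trend, robust variances) on log2(FPKM + 1), without covariates, with Benjamini-Hochberg adjustment over 11698 genes. Groups came from the genotype labels. The fit was tested on simulated data. Alternatives changed pseudocount, filter, scaling, variance model and transcripts, and left out each library. The members and gene lists were chosen with earlier results of these data known. Any member could be named with its level; differences were to be given for the 12 members with the smallest p, the 2 highest per role, the 6 of widest range among those with at least 1 FPKM in 3 libraries, and 3 genes per pathway list. Other members given in full, such as Cxcl9, Socs3 and Tnfaip3, were chosen after their values were seen. Promoters are RefSeq sequences, searched on both strands. Joins and plots used pandas 2.3.3 and matplotlib 3.10.9 under Python 3.11.15.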

Additional observations from a re-analysis of the deposited data

How the results depend on the processing

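No member was called under any of the 18 planned or 5 added alternatives. The added ones, which joined the omission of WT replicate 1 with each of 5 scalings, were chosen after seeing the data. The number of genes called over all tested, 21 with the main settings, was 14 with a pseudocount of 0.1 or 0.5, 4 with no filter or a mean filter of 0.5 FPKM, 8 with the trimmed mean of M values or the median of ratios, and 11 with the upper quartile. It was 52 with a fixed sum, 33 with a fixed sum without mitochondrial genes, and 3 without the intensity trend or with the highest transcript only. It was 0 without fat-1 replicate 1, fat-1 replicate 3 or WT replicate 3, where 1005, 1059 and 831 genes had an unadjusted p under 0.05, 1 without fat-1 replicate 2 or WT replicate 2, and 25 without WT replicate 1. With scaling added to that omission, fits without 1 library gave 0 to 70 genes. The cause of these shifts was not tested. The median over the members, 0.056, lay between -0.07 and 0.40 across fits without 1 library. Of 27 members named with a test, 15 kept their sign in every fit and 12 changed it in a fit without 1 library; Ccl3 was also at 0.081 with a pseudocount of 0.1. Without 1 library, scalings included, the differences ran from -0.91 to 0.30 for Casp1, -0.49 to 0.0059 for Ccl3, -1.85 to 0.49 for Ccl5, -2.62 to 0.42 for Ccl8, -1.23 to 1.04 for Cxcl10, -0.15 to 0.044 for Il15, -0.76 to 0.40 for Il1b, -0.11 to 0.41 for Il34, -0.27 to 0.052 for Myd88, -0.24 to 0.65 for Nfkbia, -0.41 to 0.63 for Nfkbiz and -0.063 to 0.28 for Rela. No paired analysis was possible because the sample titles of the 2 groups share no number, and the replicate numbers used here only name the libraries. The unknown depth limits members under 1 FPKM, whose levels have no counting error.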

Other observations

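Marker lists not described above gave these values. Injured tubule markers summed to 3003, 770 and 1790 FPKM in fat-1 kidneys, against 1761, 1123 and 978 FPKM in WT kidneys. Erythrocyte markers summed to 540, 27.3 and 14.98 FPKM in fat-1 kidneys, against 242, 138 and 203 FPKM in WT kidneys. Neutrophil markers, of which 5 of 11 were listed, summed to 24.8, 1.25 and 3.57 FPKM in fat-1 kidneys, against 54.0, 13.4 and 33.5 FPKM in WT kidneys. Fibroblast and pericyte markers summed to 64.1, 73.1 and 103 FPKM in fat-1 kidneys, against 126, 58.6 and 79.7 FPKM in WT kidneys. Markers of lymphoid stroma, of which 4 of 8 were listed, summed to 270, 125 and 225 FPKM in fat-1 kidneys, against 250, 238 and 210 FPKM in WT kidneys. Clu is 1 of these 4 and also stands on the injured tubule list, so this sum is not particular to lymphoid stroma. Intercalated cell markers summed to 161, 153 and 174 FPKM in fat-1 kidneys, against 225, 220 and 204 FPKM in WT kidneys, and 9 markers of the thick ascending limb and distal tubule had a median difference of -0.40.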
